A study of Homo sapiens with 12 samples.

Results

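Small proteoglycans and the hyaluronan matrix were followed in IMR90, primary human fetal lung fibroblasts, through 10 genes: the small leucine-rich proteoglycans DCN (decorin), LUM (lumican), BGN (biglycan) and FMOD (fibromodulin), the large hyaluronan-binding proteoglycan VCAN (versican), the hyaluronan synthase HAS2, the hyaluronan receptor CD44, and the cell-surface heparan sulfate proteoglycans GPC1, SDC2 and SDC4. They were chosen by symbol from the 38716 symbols in the deposited tables, and all 10 were found. Cultures were either proliferating (Pro) or had been carried through passages until they stopped dividing, which is replicative senescence (Sen), with no transgene or drug named in the labels for either state. Each state had 3 independently grown cultures, lysed in a buffer with cycloheximide, and each lysate gave 1 Ribo-seq library of the mRNA stretches protected by ribosomes and 1 RNA-seq library. The protocol names 2 isolates of IMR90 without giving the isolate of a culture, so isolate and state cannot be told apart. File names of the proliferating RNA-seq libraries carry a tag that resembles DMSO, a solvent the labels do not mention.

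Small leucine-rich proteoglycans are secreted proteins that bind collagen fibrils and carry chondroitin, dermatan or keratan sulfate chains. Hyaluronan is a long sugar chain made at the plasma membrane by HAS enzymes, organised in the matrix by versican and bound at the cell surface by CD44. Glypicans, held by a lipid anchor, and syndecans, which cross the membrane, present growth factors on their heparan sulfate chains. In lung, fibroblasts are a main source of decorin, lumican, biglycan and versican.

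RNA-seq libraries held 7902427 to 14144455 reads in mRNA regions and Ribo-seq libraries 54421 to 1718521 reads in coding sequence (CDS). Ribo-seq libraries Pro 1 and Sen 2 were the shallow ones, with 54421 and 54708 CDS reads. There 3 reads stand for 52.1 and 52.7 CPM (counts scaled to library size, the edgeR unit), against 1.79 to 5.83 CPM elsewhere. CDS reads made up 34.4% and 15.0% of the assigned reads in Pro 1 and Sen 2, and 54.7% in Sen 3. In the other Ribo-seq libraries this share was 77.8% to 88.8%, and its part in the footprint results was not tested. The fibroblast markers were present in every library at 28904 to 34174.4 CPM of mRNA in sum over 8 genes, and leukocyte markers summed to at most 0.171 CPM. Epithelial markers summed to 32.0 to 32.3 CPM in Pro and 19.3 to 23.7 CPM in Sen, with SFTPC at 0, and endothelial markers to at most 1.03 CPM, with CDH5 at 0. Nearly all of the epithelial sum was KRT8, with means of 31.1 CPM in Pro and 21.0 CPM in Sen. EPCAM, CDH1 and KRT5 had means of at most 0.71 CPM. The muscle markers MYH11 and DES summed to 76.9 to 84.1 CPM of mRNA in Pro and 58.7 to 71.8 CPM in Sen. The part of these levels in the results below was not tested. Of genes that mark the state, the cell cycle inhibitor CDKN1A was higher in Sen by 1.60 ± 0.07 in mRNA and the proliferation gene MKI67 lower (-2.30 ± 0.08), both past the edgeR threshold described below. For the bulk cultures, fewer cells that express a gene and less RNA per cell cannot be told apart.

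A part of the decorin footprints lay in the 5′ UTR, a region with ATG triplets of its own. The sequences around these and the main start codon are shown for this reason, beside the start codons of its neighbour LUM and of BGN and SDC4. Each runs 5′ to 3′ on the coding strand, with 9 bases before the ATG and 3 after it, and the capitals mark the ATG. The 5′ UTR of the canonical DCN transcript was 196 bases long and held 2 ATG triplets upstream of the main start codon, 187 and 12 bases before it, each opening a reading frame of 2 codons, the ATG included, that ends in a stop before the main start. Upstream ATG triplets, searched on the sense strand in canonical transcripts, were also found in VCAN (1) and HAS2 (2) and in none of the other 7 genes. Over 19080 canonical 5′ UTRs, 42.7% held at least 1, and 53.6% of the 3087 that were 157 to 235 bases long.
DCN first upstream ATG, chr12:91576580-91576594, minus strand: aactgtgctATGgag
DCN second upstream ATG, chr12:91572336-91572350, minus strand: tgaaaatacATGaga
DCN main start, chr12:91572324-91572338, minus strand: agataaatcATGaag
LUM main start, chr12:91502751-91502765, minus strand: ttgccaaaaATGagt
BGN main start, chrX:152770081-152770095, plus strand: ccatccgccATGtgg
SDC4 main start, chr20:43977019-43977033, minus strand: cgcggtgccATGgcc
Positions are those of the GENCODE annotation on GRCh37, matched by symbol, since the build of the deposited tables is not given in the sources used here.

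Every gene of the set passed the mRNA test, 5 higher and 5 lower in senescent cells, and the matrix genes did not move as a block. BGN fell the most and CD44 rose the most, at both layers. The threshold was an edgeR quasi-likelihood p under 0.15 after Benjamini-Hochberg adjustment over all genes tested in that layer. This was a permissive threshold in these data: 73.6% of the 12787 genes tested were called in mRNA, 36.6% as higher and 37.0% as lower, so 10 of 10 is to be read against a background in which most genes were called. Higher were LUM, VCAN, CD44, GPC1 and SDC2, and lower were DCN, BGN, FMOD, HAS2 and SDC4. The median log2 fold change of the 10 genes was -0.14, beside -0.01 over all genes tested, and values ranged from -1.70 to 1.03. The 3 Pro and 3 Sen libraries did not overlap in mRNA for 9 of the 10 genes, VCAN being the exception, beside 67.8% of all genes tested.

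Footprints in coding sequence, called RPF, were tested for 9 genes. CD44, GPC1 and SDC2 rose, DCN, BGN and HAS2 fell, and LUM, VCAN and SDC4 did not pass the test. In this layer 54.4% of 7521 genes were called, 27.5% as higher and 26.9% as lower, so 6 of 9 is again close to the background. RPF levels of Pro and Sen libraries did not overlap for BGN, CD44 and GPC1, 3 of 9 genes, beside 32.5% of all genes tested. FMOD was left out by the filter on low counts, with 30 CDS footprints over the 6 libraries.

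**Figure D1:**
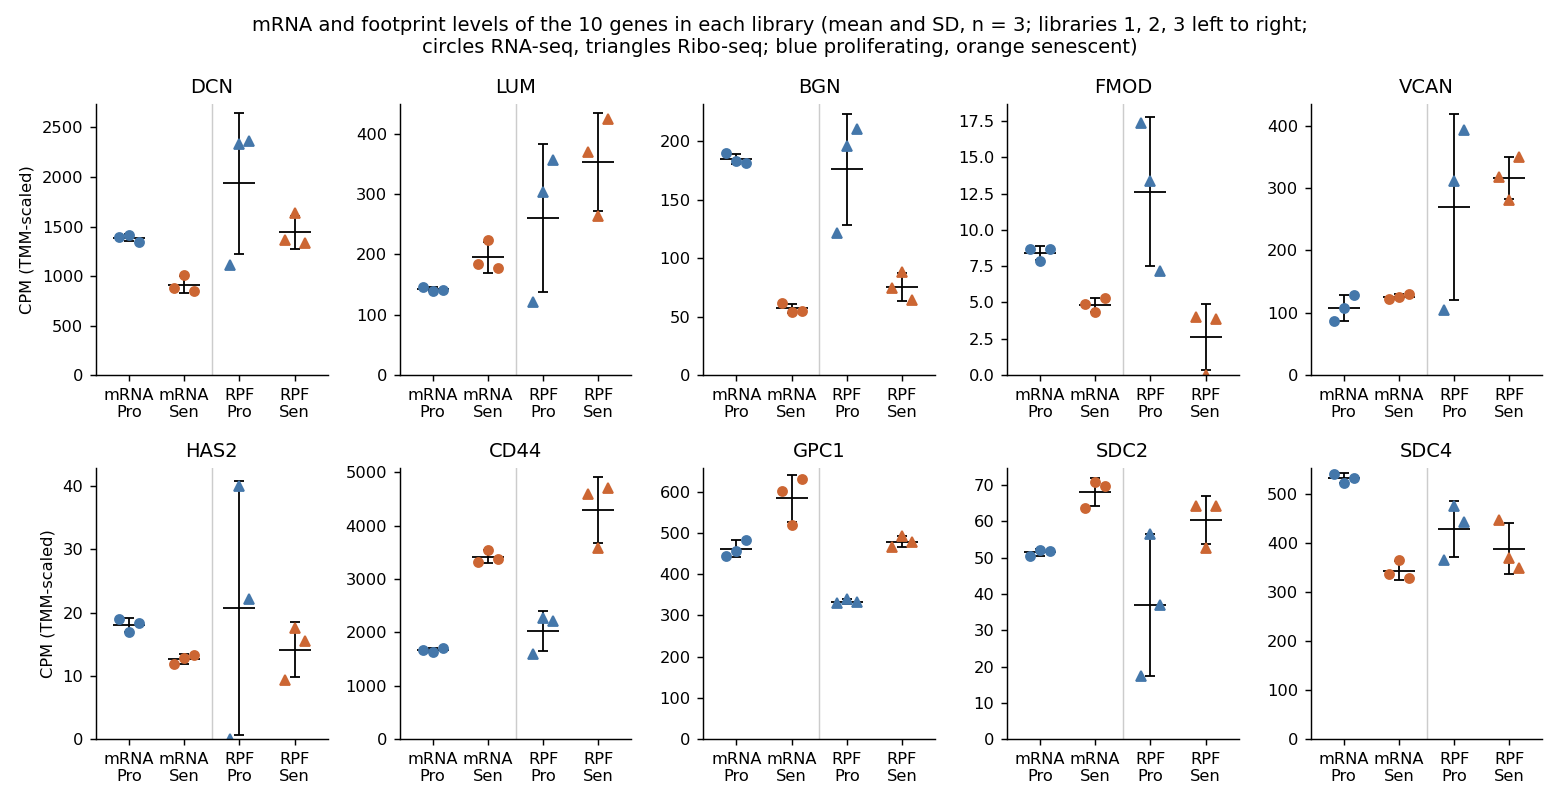
Level of each gene in each library in CPM after TMM scaling, with an axis from 0 per gene; circles are RNA-seq and triangles Ribo-seq libraries, blue is proliferating and orange senescent, and black bars give the mean and SD of 3 libraries. The CD44 points of senescent cells lie above those of proliferating cells at both layers, the BGN points below them, and the Ribo-seq point of Pro 1, the leftmost blue triangle, is the lowest of the Pro points for DCN, LUM, BGN, VCAN, HAS2, CD44, GPC1, SDC2 and SDC4.

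Among the small leucine-rich proteoglycans, decorin was the most abundant. The gene lies at chr12:91534261-91576994 on the minus strand, with 8 exons in its canonical transcript and a protein of 359 residues that binds collagen and restrains TGF-beta. DCN mRNA stood at 1390.1, 1416.8 and 1348.1 CPM in Pro 1, 2 and 3, and at 877.5, 1011.9 and 846.8 CPM in Sen 1, 2 and 3. All Sen libraries lay below all Pro libraries, and mRNA fell by 0.60 ± 0.08 (SE) on the log2 scale (edgeR adjusted p = 5.51e-07). DCN footprints were 1110.6, 2330.0 and 2365.0 CPM in Pro and 1360.6, 1635.0 and 1329.7 CPM in Sen. The value in the shallow library Pro 1, which rests on 64 reads, was below every Sen value, so the groups overlapped. RPF fell by 0.54 ± 0.18 (edgeR adjusted p = 0.0122). Without the shallow lysates Pro 1 and Sen 2 the RPF change was -0.80 (edgeR adjusted p = 1.73e-06), and the adjusted p ranged from 3.75e-07 to 0.309 over 13 alternatives, the call being lost in DESeq2 and on leaving out Pro 2, Pro 3, Sen 1 or Sen 3.

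Lumican, which also binds collagen fibrils and carries keratan sulfate in some tissues, is encoded next to decorin. LUM lies at chr12:91496406-91505271 on the same strand, 29.0 kb from DCN, with 3 exons and 338 residues. Its mRNA was 146.1, 139.8 and 141.1 CPM in Pro and 183.6, 223.8 and 177.3 CPM in Sen. Every Sen library was above every Pro library, a rise of 0.46 ± 0.08 on the log2 scale (edgeR adjusted p = 4.44e-05). LUM footprints were 121.5, 304.2 and 355.9 CPM in Pro and 370.5, 263.7 and 423.8 CPM in Sen, with 7 reads behind the first value and 15 behind the Sen 2 value. The groups overlapped, and the RPF change of 0.27 ± 0.17 did not pass the test (edgeR adjusted p = 0.184). It passed on leaving out Pro 3 (0.52, adjusted p = 0.119) or Sen 2 (0.33, adjusted p = 0.10), within a range of 0.10 to 0.602 over 13 alternatives.

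The balance between these neighbouring genes therefore shifted, and a ratio taken within a library does not depend on how libraries are scaled. Per kb of coding sequence, DCN held 8.92, 9.64 and 9.61 times the RNA-seq CDS reads of LUM in Pro, and 4.58, 4.38 and 4.66 times in Sen. In footprints the ratio was 8.61, 7.21 and 6.26 in Pro and 3.46, 5.84 and 2.95 in Sen. Neither layer showed an overlap between the states (exact permutation test, two-sided, n = 3 and 3, p = 0.10 in each, the smallest p this design allows).

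Biglycan, the closest relative of decorin among these genes, lies at chrX:152760438-152775004 on the plus strand and encodes 368 residues. Its mRNA was 190.2, 183.1 and 181.6 CPM in Pro and 61.7, 54.0 and 55.2 CPM in Sen. The states were far apart, and BGN fell by 1.70 ± 0.08 on the log2 scale (edgeR adjusted p = 1.9e-14). Footprints followed, with 121.5, 195.9 and 210.5 CPM in Pro and 74.4, 87.9 and 64.2 CPM in Sen. They too did not overlap, although 7 and 5 reads stand behind Pro 1 and Sen 2, and RPF fell by 1.47 ± 0.19 (edgeR adjusted p = 4.28e-10). Decorin and biglycan both fell, but unequally: the DCN to BGN ratio of CDS reads per kb was 13.1 ± 0.977 (SD, n = 3) in Pro and 28.6 ± 5.22 in Sen for mRNA, and 11.0 ± 1.47 and 19.7 ± 1.36 for footprints (exact permutation test, two-sided, p = 0.10 in each).

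Fibromodulin, a regulator of collagen fibril assembly at chr1:203309756-203320886 on the minus strand, was a minor transcript. FMOD mRNA was 8.67, 7.86 and 8.66 CPM in Pro and 4.89, 4.32 and 5.30 CPM in Sen, and each Sen value was below each Pro value. It fell by 0.80 ± 0.15 on the log2 scale (edgeR adjusted p = 6.66e-05). Its CDS footprints numbered 1, 9 and 12 in Pro and 6, 0 and 2 in Sen, which is 17.4, 13.4 and 7.15 CPM and 4.02, 0 and 3.89 CPM. These did not overlap, although the 0 in Sen 2 allows up to 52.7 CPM and the value of Pro 1 is 1 read. FMOD was below the filter on low counts of the RPF test, and with genes kept from 1 read it was lower in RPF by -1.25 ± 0.63 (edgeR adjusted p = 0.142, close to the threshold of 0.15). As a class, the 4 small leucine-rich proteoglycans took 0.178% ± 0.00289 of the mRNA reads in Pro and 0.113% ± 0.0108 in Sen (exact permutation test, two-sided, n = 3 and 3, p = 0.10), and 0.237% ± 0.08 and 0.176% ± 0.0266 of the footprints (p = 0.40 in the same exact test).

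Versican, whose N-terminal domain binds hyaluronan, lies at chr5:82767437-82878122 on the plus strand, with 15 exons and 3396 residues in the canonical transcript. VCAN mRNA was 87.0, 106.8 and 129.1 CPM in Pro and 122.8, 124.5 and 130.2 CPM in Sen. The Pro libraries were spread and the groups overlapped, and the change of 0.22 ± 0.10 passed the threshold (edgeR adjusted p = 0.052). That call rested on Pro 1: without it the change was 0.09 (edgeR adjusted p = 0.378, the highest of 13 alternatives, the lowest being 0.00136), and it was also lost with library totals in place of TMM factors (0.11), with CDS reads alone (0.19) and without both shallow lysates (0.10). VCAN footprints were 104.1, 311.7 and 393.5 CPM in Pro and 317.6, 281.3 and 349.9 CPM in Sen. Apart from the shallow Pro 1 library, with 6 reads, the states covered the same range, and the RPF change was -0.04 ± 0.17 (edgeR adjusted p = 0.883), with no fixed sign under the alternatives. The antisense gene VCAN-AS1 shares exonic positions with VCAN and held 0 reads in every library.

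HAS2, the main hyaluronan synthase of fibroblasts, lies at chr8:122624356-122653680 on the minus strand and encodes 552 residues. Its mRNA was 19.0, 16.9 and 18.4 CPM in Pro and 11.9, 12.9 and 13.4 CPM in Sen. The Sen libraries were all lower, and HAS2 fell by 0.50 ± 0.11 on the log2 scale (edgeR adjusted p = 0.000378). Footprints were few: 0, 27 and 37 reads in Pro and 14, 1 and 8 reads in Sen, which is 0, 40.1 and 22.1 CPM and 9.38, 17.6 and 15.6 CPM. The 0 in Pro 1 allows up to 52.1 CPM, and the groups overlapped. RPF fell by 1.25 ± 0.39 in the test (edgeR adjusted p = 0.0076), a call that held in 9 of 12 alternatives (adjusted p = 0.00174 to 0.633) and was lost, among others, in DESeq2 (-1.03, adjusted p = 0.573) and on leaving out Sen 1 (-0.76, adjusted p = 0.37). The antisense gene HAS2-AS1 shares exonic positions with HAS2 and held 11 to 22 RNA-seq reads per library, and the strand rule of the counting is not given in the sources used here.

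CD44 showed the largest rise of the set. The receptor, which binds hyaluronan outside the cell and links to the cortical cytoskeleton inside it, is encoded at chr11:35160429-35253949 on the plus strand, with 18 exons and 742 residues in the canonical transcript. Its mRNA was 1664.5, 1637.2 and 1702.9 CPM in Pro and 3316.8, 3550.7 and 3379.7 CPM in Sen. The states were clearly apart, with a log2 fold change of 1.03 ± 0.07 (edgeR adjusted p = 3.78e-11), a mean ratio of 2.05. CD44 footprints were 1596.5, 2264.7 and 2216.0 CPM in Pro and 4596.5, 3586.4 and 4700.8 CPM in Sen. They rose by 1.06 ± 0.18 on the log2 scale (edgeR adjusted p = 1.59e-06), and the call held in each of 13 alternatives, with changes of 0.91 to 1.17. The 3′ UTR held 22.0%, 1.23% and 0.826% of CD44 footprints in Pro and 3.86%, 24.4% and 3.51% in Sen. Antisense transcripts CD44-AS1 and CD44-DT share exonic positions with the gene in the annotation.

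CD44 and HAS2 thus moved in opposite directions in mRNA. HAS3, another hyaluronan synthase, stood at 15.4 CPM of mRNA in Pro and 15.8 CPM in Sen (0.05 ± 0.11, edgeR adjusted p = 0.70). Per kb of coding sequence, CD44 held 45.6, 49.7 and 46.3 times the RNA-seq reads of HAS2 in Pro and 124.9, 131.7 and 111.6 times in Sen, again without overlap (exact permutation test, two-sided, n = 3 and 3, p = 0.10). CD44 also gained 3′ UTR reads as a share of its mRNA reads: 46.1%, 45.3% and 47.8% in Pro and 48.7%, 52.9% and 49.1% in Sen (exact permutation test, two-sided, p = 0.10). The same share over all genes went from 24.9% ± 0.219 to 27.6% ± 1.14, and its part in the CD44 difference was not tested. For the other 9 genes the exact p of the 3′ UTR share was 0.20 or higher.

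Of the heparan sulfate proteoglycans, GPC1 and SDC2 rose and SDC4 fell in mRNA. GPC1 (glypican 1), at chr2:241375080-241407493 on the plus strand, stood at 445.1, 456.3 and 483.9 CPM of mRNA in Pro and 601.9, 518.8 and 629.9 CPM in Sen. These did not overlap, and mRNA rose by 0.34 ± 0.08 on the log2 scale (edgeR adjusted p = 0.000678). Its CDS footprints were uniform within each state, at 329.7, 339.9 and 331.5 CPM in Pro and 464.9, 492.2 and 478.2 CPM in Sen. RPF rose by 0.50 ± 0.16 on the log2 scale (edgeR adjusted p = 0.00753), even though the shallow libraries held 19 and 28 of these reads. The 3′ UTR held 9.52%, 2.46% and 0.702% of GPC1 footprints in Pro and 6.11%, 42.9% and 9.58% in Sen. Over all genes this share was 12.4%, 1.94% and 1.4% in Pro and 3.51%, 14.8% and 4.9% in Sen. Whether reads of this kind also lie in the coding sequence was not tested.

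SDC2 (syndecan 2), at chr8:97506041-97624018 on the plus strand, had mRNA of 50.3, 52.2 and 51.7 CPM in Pro and 63.6, 70.7 and 69.8 CPM in Sen. The Sen libraries were all higher, by 0.41 ± 0.08 on the log2 scale (edgeR adjusted p = 7.43e-05). SDC2 footprints were 17.4, 56.4 and 37.0 CPM in Pro and 64.3, 52.7 and 64.2 CPM in Sen, where Pro 1 held 1 read and Sen 2 held 3. The groups overlapped through Pro 2 and Sen 2, and the rise of 0.58 ± 0.24 (edgeR adjusted p = 0.0495) held in 9 of 13 alternatives (adjusted p = 0.0298 to 0.634) and was lost, among others, without Pro 3 (0.29, adjusted p = 0.576), without Sen 1 (0.57, adjusted p = 0.256) and in DESeq2 (0.54, adjusted p = 0.634).

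SDC4 (syndecan 4), a receptor of focal adhesions at chr20:43953928-43977064 on the minus strand, differed between the layers. Its mRNA was 541.4, 521.6 and 532.4 CPM in Pro and 337.7, 365.1 and 328.5 CPM in Sen. Every Sen library was lower, and mRNA fell by 0.63 ± 0.07 on the log2 scale (edgeR adjusted p = 7.22e-08). SDC4 footprints were 364.4, 474.9 and 443.6 CPM in Pro and 446.8, 369.2 and 349.9 CPM in Sen. The states overlapped, and the RPF change of -0.16 ± 0.16 did not pass the test (edgeR adjusted p = 0.435). The 3′ UTR held 38.9%, 3.01% and 2.62% of SDC4 footprints in Pro and 5.65%, 12.5% and 7.22% in Sen. Within libraries, the ratio of SDC4 to SDC2 per kb of coding sequence went from 9.18 ± 0.543 (SD, n = 3) to 4.14 ± 0.119 in mRNA, and in footprints it was 21.3, 8.55 and 12.2 in Pro and 7.05, 7.11 and 5.54 in Sen (exact permutation test, two-sided, p = 0.10 in each). The footprint ratio of Pro 1 rests on 21 SDC4 reads and 1 SDC2 read, and that of Sen 2 on 21 and 3 reads.

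**Figure D2:**
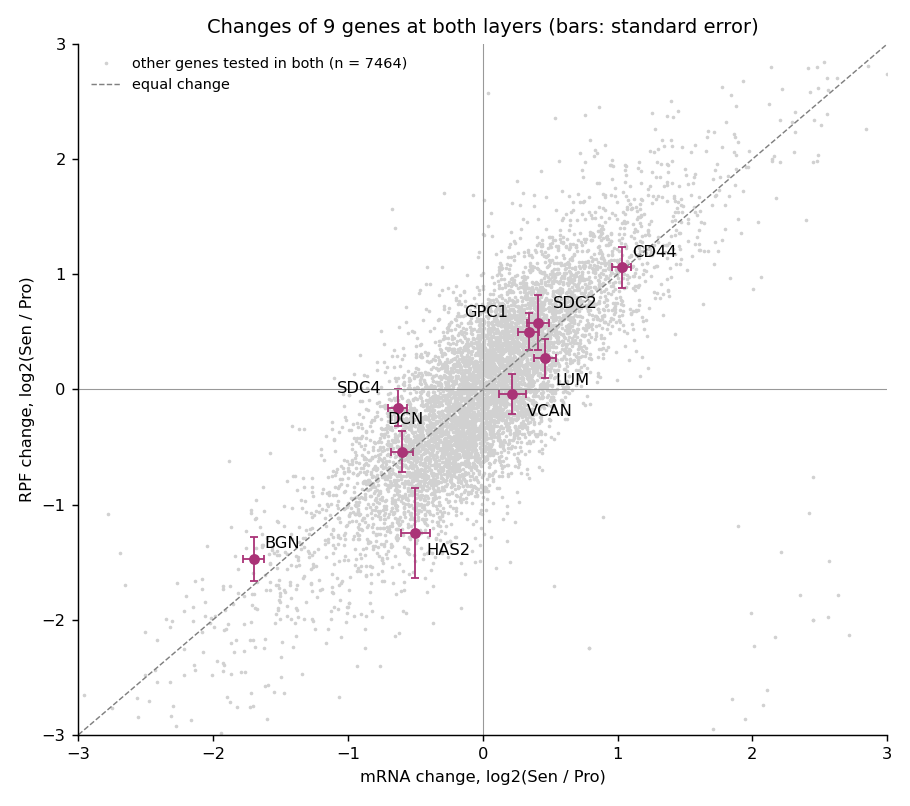
Change of RPF against change of mRNA, both as log2 of senescent over proliferating, with standard errors for the 9 genes tested in both layers; grey points are the other 7464 genes, of which those beyond 3 in either direction fall outside the axes, and the dashed line marks equal change. BGN and CD44 lie near the line at opposite ends, SDC4 above it at -0.63 in mRNA and -0.16 in RPF, and HAS2 below it with the widest error.

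Translational efficiency (TE), the footprints of a gene relative to its mRNA, was compared next, as the interaction of library type and state in 1 model over the 12 libraries. SDC4 was the gene called. Its TE, as log2 of RPF over mRNA, was -0.54, -0.13 and -0.26 in Pro and 0.40, 0.05 and 0.09 in Sen. All Sen lysates lay above all Pro lysates, and TE rose by 0.52 ± 0.17 (edgeR adjusted p = 0.0665), while mRNA fell and RPF did not pass its test. In this layer 10.0% of 7473 genes were called, 6.32% as higher and 3.73% as lower, so 1 of 9 is close to the background. The TE call of SDC4 held in 7 of 14 alternatives, with changes from 0.35 to 0.59 and adjusted p from 0.0363 to 0.999. It was kept without the shallow lysates (0.50, edgeR adjusted p = 0.0381) and was lost without Pro 2, Pro 3, Sen 1 or Sen 3 (adjusted p = 0.292 to 0.655) and in DESeq2 (adjusted p = 0.999).

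No other gene of the set passed the TE test, and 0 were lower in edgeR, at an unadjusted p under 0.05 or in DESeq2. DESeq2 called only 28 of 7473 genes in TE, so its 0 adds little. BGN lysates lay at -0.55, 0.10 and 0.21 in Pro and 0.27, 0.84 and 0.24 in Sen, and GPC1 lysates at -0.40, -0.42 and -0.54 in Pro and -0.37, -0.05 and -0.39 in Sen. With SDC4 these made 3 of 9 genes whose lysates did not overlap between the states, beside 16.2% of all genes tested, but the gaps in BGN and GPC1 were small, and their TE changes were 0.20 ± 0.21 (edgeR adjusted p = 0.656) and 0.18 ± 0.17 (edgeR adjusted p = 0.611). Changes in DCN (0.16 ± 0.19), LUM (-0.07 ± 0.18), VCAN (-0.10 ± 0.17), CD44 (0.08 ± 0.19) and SDC2 (0.27 ± 0.25) were smaller than their standard errors or close to them, and that of HAS2 was -0.68 ± 0.43 (edgeR adjusted p = 0.403). Errors of this size leave room for changes of the size seen in SDC4, and the missed threshold does not show that TE was equal.

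**Figure D3:**
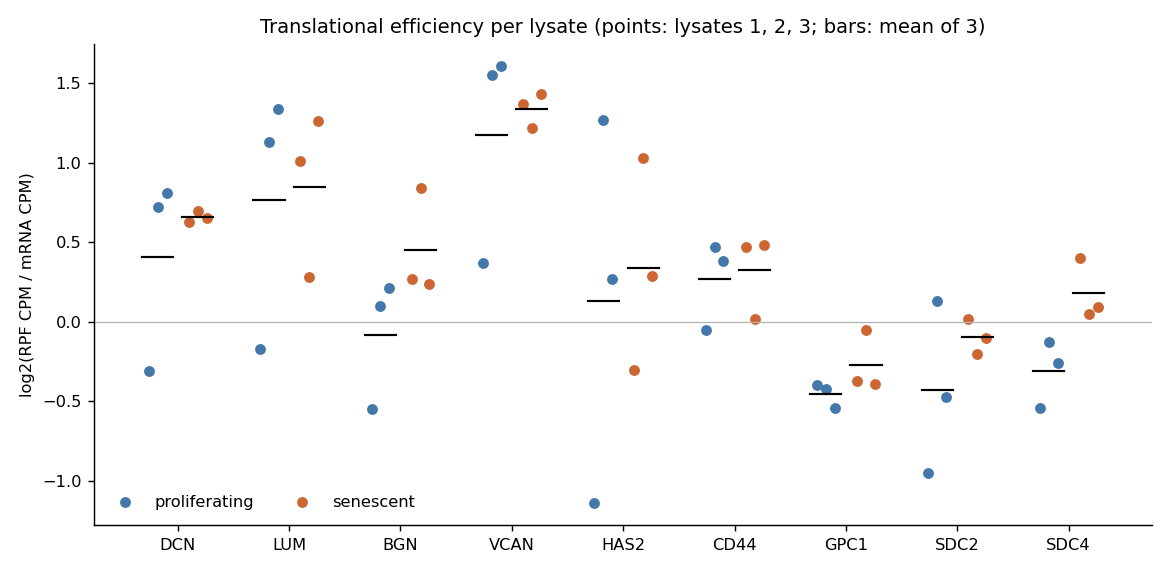
Translational efficiency of 9 genes in each lysate, as log2 of RPF CPM over mRNA CPM with 0.5 added to each count; blue points are proliferating and orange points senescent lysates, and bars are means of 3. For SDC4 the senescent lysates, at 0.05 to 0.40, lie above the proliferating ones, at -0.54 to -0.13, and the lowest blue point of DCN, LUM, BGN, VCAN, HAS2, CD44, SDC2 and SDC4 is the shallow lysate Pro 1.

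Levels were next compared between genes, as CPM of CDS reads per kb of canonical coding sequence, so that both layers are on the same footing. Lengths come from the annotation, and for CD44 and VCAN, whose transcripts differ in the exons they include, shorter forms would give higher levels. In proliferating cells the order of mRNA was DCN (1621.4 ± 58.2, SD, n = 3), CD44 (529.6 ± 6.81), SDC4 (467.9 ± 5.78), GPC1, LUM, BGN, SDC2, VCAN, HAS2 and FMOD (5.16 ± 1.28). Only VCAN and HAS2 overlapped as neighbours in that order. In senescent cells DCN, at 1090.9 ± 119.7, and CD44, at 1025.7 ± 24.0, overlapped in mRNA, as did SDC4, GPC1 and LUM in turn, and SDC2 stood above BGN.

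In footprints per kb of canonical coding sequence, CD44 took the place of DCN at the head of the set. The order depends on these lengths, since undivided footprints in Pro averaged 2025.7 ± 372.5 CPM for CD44 and 1935.2 ± 714.4 CPM for DCN. Footprints per kb were highest for DCN in Pro, at 1791.9 ± 661.5 CPM per kb against 908.8 ± 167.2 for CD44. In Sen they were highest for CD44, at 1926.7 ± 276.1, against 1335.0 ± 155.6 for DCN, and these ranges did not overlap. Within a library, CD44 held 0.697, 0.471 and 0.454 times the footprints per kb of DCN in Pro and 1.64, 1.06 and 1.71 times in Sen, and in RNA-seq 0.328, 0.318 and 0.335 times in Pro and 0.975, 0.858 and 1.0 times in Sen (exact permutation test, two-sided, n = 3 and 3, p = 0.10 for each layer). As shares of the summed footprint level of the 10 genes, DCN went from 42.3% ± 5.24 to 28.2% ± 4.74 and CD44 from 22.4% ± 2.52 to 40.4% ± 4.10.

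**Figure D4:**
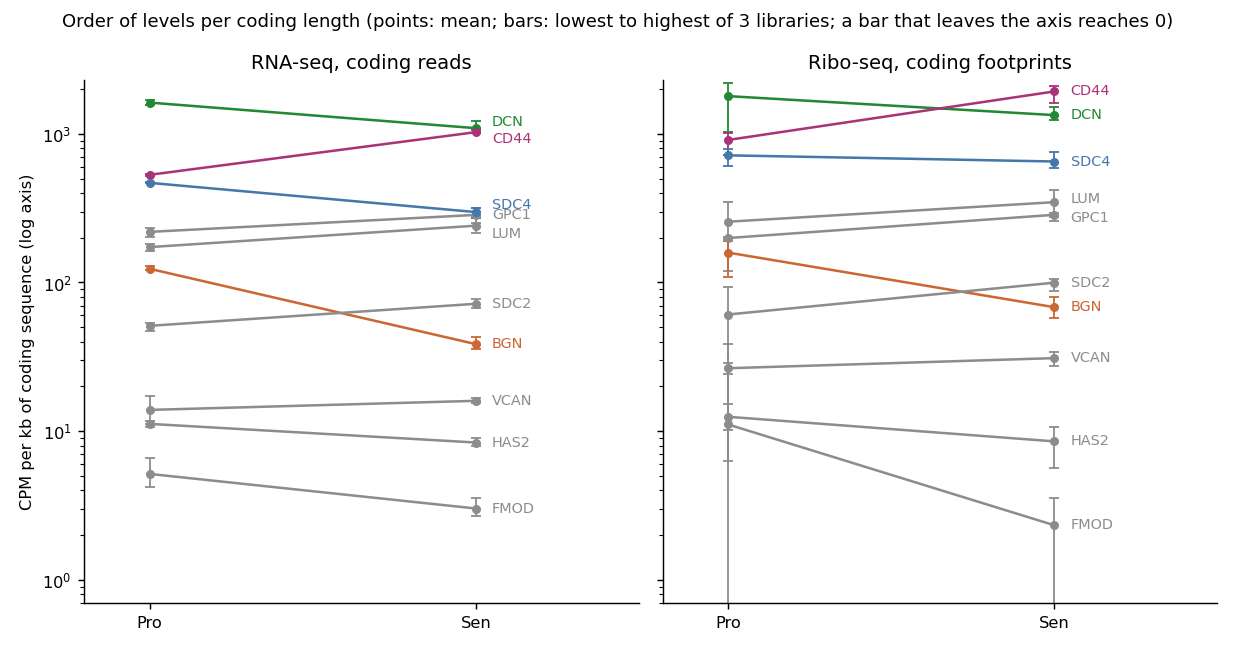
CPM of coding reads per kb of coding sequence on a log axis in proliferating and senescent cells, RNA-seq on the left and Ribo-seq on the right; points are means and bars run from the lowest to the highest of 3 libraries. DCN and CD44 converge in RNA-seq, at 1090.9 and 1025.7, and cross in Ribo-seq, and BGN drops below SDC2 in both.

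The set as a whole took a larger part of the libraries in senescent cells, 0.472% ± 0.00513 of mRNA reads in Pro and 0.551% ± 0.0204 in Sen, and 0.549% ± 0.128 and 0.694% ± 0.0116 of footprints, with no overlap in either layer (exact permutation test, two-sided, p = 0.10 in each). CD44 alone went from 0.173% ± 0.004 to 0.329% ± 0.0131 of mRNA reads and from 0.203% ± 0.0294 to 0.399% ± 0.022 of footprints. These gains exceed those of the whole set, so the other genes together took a smaller part on average in both layers. The 3 heparan sulfate proteoglycans together went from 0.108% ± 0.00252 to 0.0959% ± 0.00375 of mRNA reads (exact permutation test, two-sided, p = 0.10), and from 0.0802% ± 0.00515 to 0.087% ± 0.00835 of footprints, where the states overlapped (p = 0.30 in the same exact test).

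Footprints on the decorin 5′ UTR, the part of the mRNA that holds the upstream ATG triplets printed above, were compared with those of the other genes. Of the DCN footprints in the 3 mRNA regions, 2 of 66, 113 of 1684 and 203 of 4171 lay in the 5′ UTR in Pro 1, 2 and 3, and 159 of 2190, 1 of 95 and 21 of 705 in Sen 1, 2 and 3. As shares with Wilson 95% intervals, the deeper libraries gave 6.71% (5.61 to 8.01), 4.87% (4.25 to 5.56), 7.26% (6.25 to 8.42) and 2.98% (1.96 to 4.51). LUM had 6 such footprints in Pro and 3 in Sen, with shares of 0.966% (0.265 to 3.45), 0.50% (0.17 to 1.46), 0.54% (0.184 to 1.57) and 0% (0 to 1.73) in the same 4 libraries. The intervals of DCN and LUM were apart in each of them, and the share of RNA-seq reads in the 5′ UTR in Pro was 15.7% ± 1.22 for DCN and 13.2% ± 1.23 for LUM, the DCN share being the higher in each of the 3 Pro libraries.

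Pooled over the 6 libraries, 5.60% of DCN footprints lay in the 5′ UTR, which was above 87.0% of the 6330 genes with at least 100 CDS footprints, whose median was 0.885%. SDC2, with 0 upstream ATG triplets, was at 5.26% on far fewer reads, 10 in Pro and 3 in Sen. The other genes of the set with at least 100 CDS footprints were at 0.169% (CD44) to 1.68% (GPC1). Among them VCAN, with 1 upstream ATG, was at 0.768%. The part of the upstream ATG triplets in these shares was not tested. Below that number, HAS2 had 2 of 66 footprints in the 5′ UTR in Pro and 1 of 24 in Sen, and FMOD 0 of 22 and 0 of 8. The DCN share did not differ between the states beyond the spread of lysates, at 4.87% ± 1.84 in Pro and 3.76% ± 3.18 in Sen (exact permutation test, two-sided, p = 0.70). The share over all genes varied from 2.78% to 44.7% between Ribo-seq libraries, and its part in these values was not tested. The DCN share was above it in Pro 2, Pro 3 and Sen 1, and below it in Pro 1, Sen 2 and Sen 3 (2.98% against 13.8% in Sen 3). How reads across the border of 5′ UTR and coding sequence were assigned is not given in the sources used here, and 12 bases separate the second upstream ATG from the main start.

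Around these 10 genes, 104 genes of 7 related lists were examined, of which 73 were tested in mRNA, 47 in RPF and 47 in TE. In mRNA 34 rose and 24 fell, 79.5% of those tested beside 73.6% of all genes, with a median log2 fold change of 0.08. In RPF 20 rose and 9 fell, 61.7% beside 54.4%, with a median of 0.10, and in TE 3 rose and none fell in edgeR, 6.38% beside 10.0%, with 0 lower at an unadjusted p under 0.05 and 0 lower in DESeq2, which called only 28 of 7473 genes in TE. The lists were drawn up with results of these data known, and the counts are a description.

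Enzymes that build the tetrasaccharide linker and the chondroitin or dermatan sulfate chains rose more often than they fell. Of 21 tested in mRNA, 14 rose and 5 fell, 90.5% beside 73.6% of all genes, of which 36.6% rose, with a median log2 fold change of 0.57 beside -0.01 over all genes. Of 16 tested in RPF, 8 rose and none fell in edgeR, 50.0% beside 54.4% of all genes, of which 27.5% rose and 26.9% fell, with a median of 0.71, and 0 were lower at an unadjusted p under 0.05 or in DESeq2. The 8 enzymes that rose in RPF were XYLT1 and XYLT2, which add the first xylose, B4GALT7 and B3GAT3, which extend the linker, CHPF, CHPF2 and CSGALNACT2, which act in chain elongation or initiation, and the sulfotransferase CHST3, named here after their values were seen. The highest change in mRNA among these enzymes was that of CSGALNACT1, a chain-initiating transferase, at 1.68 ± 0.10 (edgeR adjusted p = 3.17e-12), and the lowest that of CHST15, another sulfotransferase, at -2.80 ± 0.21 (edgeR adjusted p = 9.59e-11). The others lower in mRNA were CHSY1 (-0.55), UST (-0.45), DSE (-0.38) and CHST14 (-0.26), each at an edgeR adjusted p of 0.0083 or less. DSE was the most abundant mRNA of this list in Pro, at 418.4 CPM, and its relative DSEL rose by 0.26. These too are named after their values were seen.

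All 3 list genes called in TE were of this list. XYLT2 mRNA was 49.9, 50.3 and 47.3 CPM in Pro and 88.4 to 100.1 CPM in Sen, and its footprints were 17.4, 23.7 and 26.2 CPM in Pro and 99.8, 123.1 and 87.5 CPM in Sen. The Pro 1 footprint value of XYLT2 is 1 read and that of Sen 2 is 7. Neither layer overlapped, and TE rose by 0.94 ± 0.26 (edgeR adjusted p = 0.025). CHPF rose in TE by 0.51 ± 0.19 (edgeR adjusted p = 0.121) and CHST3 by 0.87 ± 0.33 (edgeR adjusted p = 0.115), the latter on 1 footprint read each in Pro 1 and Sen 2. Without Pro 2 or without Pro 3, none of the list genes was called in TE, and 1 was called without Sen 1 or without Sen 3.

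On the hyaluronan side, 14 genes were tested in mRNA, of which 4 rose and 5 fell (64.3% beside 73.6% of all genes), and 8 in RPF, of which 2 rose and 5 fell (87.5% beside 54.4%, with 26.9% of all genes lower), with a median of -0.71. CEMIP, which binds hyaluronan and drives its breakdown, had the lowest value: its mRNA was 63.8 to 78.3 CPM in the Sen libraries against 1011.3 to 1133.9 CPM in Pro, and fell by 3.89 ± 0.09 on the log2 scale (edgeR adjusted p = 4.61e-19). CEMIP footprints were 885.0, 1537.5 and 1652.0 CPM in Pro and 89.1, 211.0 and 182.7 CPM in Sen, and fell by 3.47 ± 0.22 (edgeR adjusted p = 2.46e-23). UGDH, which makes the UDP-glucuronate used for hyaluronan and the sulfated chains alike, was lower in both layers, at -0.80 in mRNA and -1.04 in RPF (edgeR adjusted p = 2.72e-09 and 1.8e-06), and is named after its value was seen. CEMIP2 and HYAL2, named for the same reason, went the other way. CEMIP2 rose by 0.86 in mRNA and 0.95 in RPF (edgeR adjusted p = 3.58e-10 and 4.4e-05), and HYAL2 by 0.23 and 0.68 (edgeR adjusted p = 0.0161 and 0.063). ITIH5, of the family of hyaluronan-linked heavy chains, was at 0.99 ± 0.36 in mRNA (edgeR adjusted p = 0.0202), on 6 to 22 reads per library. HYAL3, of the hyaluronidase family and named here after its value was seen, had the same rounded change with a smaller error, 0.99 ± 0.16 (edgeR adjusted p = 1.73e-05), and these were the highest called of this list.

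The other lists were more mixed. Of the remaining heparan sulfate and membrane proteoglycans, 4 of 11 rose and 5 fell in mRNA (81.8%), and 4 of 9 rose and 2 fell in RPF (66.7%), beside the 73.6% and 54.4% of all genes called. GPC4, a glypican like GPC1, had mRNA of 2.44, 4.87 and 4.93 CPM in Pro and 24.4, 24.3 and 24.7 CPM in Sen, a rise of 2.53 ± 0.15 (edgeR adjusted p = 3.23e-12), and its RPF rose by 2.84 ± 0.36 (edgeR adjusted p = 6.64e-10), while GPC2 fell by 2.45 ± 0.26 on the log2 scale in mRNA (edgeR adjusted p = 3.56e-08). Heparan chain enzymes were 8 higher and 5 lower of 16 in mRNA (81.2%) and 3 higher and 2 lower of 9 in RPF (55.6%). EXTL1, of the family of heparan chain glycosyltransferases, rose by 3.50 ± 0.19 in mRNA (edgeR adjusted p = 7.11e-13), and SULF1, which removes 6-O-sulfates from finished heparan sulfate, fell by 1.35 ± 0.07 in mRNA (edgeR adjusted p = 2.53e-13) and by 1.35 ± 0.18 in RPF (edgeR adjusted p = 2.92e-09).

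Few other small leucine-rich proteoglycans were expressed: 3 of 13 were tested in mRNA, with PODN at 0.16 ± 0.08 (edgeR adjusted p = 0.109) and TSKU at -0.81 ± 0.09 (edgeR adjusted p = 7.65e-08) past the threshold. Of 7 hyalectans and link proteins 2 were tested, and both rose in mRNA, HAPLN3 by 0.88 ± 0.10 (edgeR adjusted p = 5.33e-08), while HAPLN4 held 3, 2 and 3 reads in Pro and 11, 19 and 14 reads in Sen. Among proteases that cut versican and aggrecan, 1 of 6 rose and 3 fell in mRNA (66.7%). The counts of these small lists stand beside 73.6% of all genes called in mRNA, 36.6% as higher and 37.0% as lower. ADAMTS5 rose by 1.89 ± 0.11 in mRNA (edgeR adjusted p = 3.09e-12) and by 1.48 ± 0.32 in RPF (edgeR adjusted p = 9.26e-05), and ADAMTS15 was the lowest of them in mRNA, at -0.58 ± 0.16 (edgeR adjusted p = 0.00298).

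**Figure D5:**
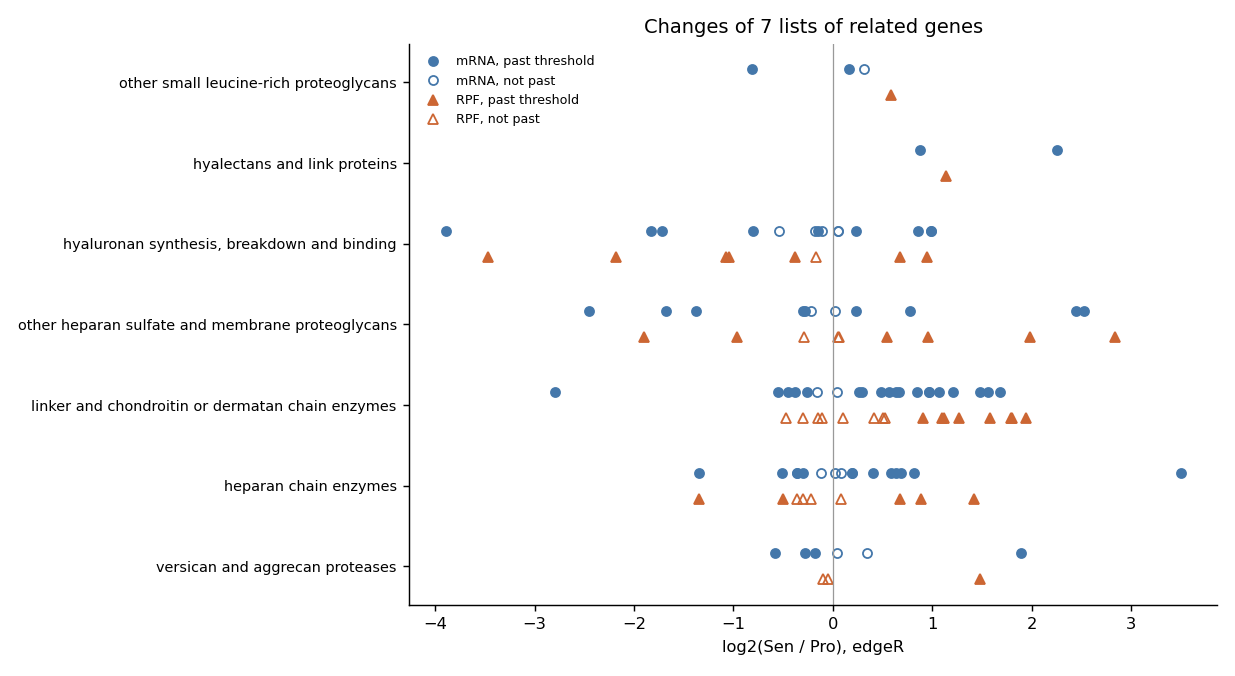
Log2 change of senescent over proliferating cells for each gene of 7 related lists that was tested, circles for mRNA and triangles for RPF; filled symbols passed an adjusted p of 0.15. In the row of linker and chondroitin or dermatan chain enzymes the filled RPF triangles, 8 of 16, all lie to the right of 0, and the leftmost circle of the plot is CEMIP at -3.89.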

How the data were processed

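Per the labels, RNA-seq and Ribo-seq libraries came from the same 6 lysates, and groups and replicate numbers were read from the sample titles. The authors deposited tables of expected counts: reads per symbol in the 5′ UTR, CDS, 3′ UTR and other classes, not scaled to depth, in which 12.1% to 22.7% of nonzero CDS values were not whole in a library. The submitters' processing notes name cutadapt 1.18, Bowtie 1.0.1, SAMtools 1.8 and DESeq2 1.22.2, whose roles, the build, the annotation, the strand rule and the handling of multiple placements are not given in the sources used here.

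Regions were summed (RPF: CDS; mRNA: 5′ UTR, CDS and 3′ UTR) and rounded to whole numbers, although the planned tests had assumed plain counts. The 16451 symbols with a CDS read entered edgeR 4.0.16 (R 4.3.3): filterByExpr, TMM within library type, two-sided quasi-likelihood tests of 3 against 3 libraries, and for TE the interaction of library type and state with lysate as a block. Significance was an adjusted p under 0.15, the published false discovery rate. Errors of fold changes are approximate standard errors, taken as the absolute log2 fold change over the square root of the quasi-likelihood F statistic. Those of levels are SDs over 3 libraries. P-values rest on the spread between these 3 cultures per state, and in edgeR the spread of a gene is drawn toward a trend over all genes. An edgeR p can therefore be low where a gene's own libraries vary widely, as for HAS2 footprints in Pro (20.7 ± 20.1 CPM). Shares carry Wilson 95% intervals, and a floor of 3 counts was used; both cover counting error only. RNA-seq and Ribo-seq of a lysate deviated together only weakly (r across genes -0.046 to 0.059). No 2 libraries agreed within sampling noise. Scripts were tested on simulated data. Library-specific depth set the precision of footprints.

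Alternatives were DESeq2 1.42.0, other scaling factors, another filter, other read regions, a replicate block, a threshold of 0.05 and leaving out each library or both shallow lysates. Named genes were the 10 genes, the highest and lowest called in mRNA of each list and any list gene called in TE. These genes and lists were chosen with earlier results of these data known. Gene positions and lengths were read from GENCODE on GRCh37 by symbol, with TMEM2 looked up as CEMIP2.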

Additional observations from a re-analysis of the deposited data

Results flagged for a closer look

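SDC4 changed differently at the 2 layers: the senescent-to-proliferating log2 change in RPF exceeded that in mRNA by 0.52 (edgeR interaction test, adjusted p = 0.0665, range 0.0363 to 0.999 over 14 alternatives), and TE was higher in all 3 Sen lysates than in any Pro lysate.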

How the results depend on the processing

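Among the 5 genes called lower and the 5 called higher in mRNA, the lower count stayed at 5 in every alternative run and the higher count was 4 or 5, VCAN being the gene lost. Library totals in place of TMM factors moved the median of all genes to -0.11 in mRNA and -0.14 in RPF and turned no sign among the 10 genes in mRNA; SDC4 then passed as lower in RPF (-0.30, edgeR adjusted p = 0.0888). Genes of the set called lower in RPF numbered 3, against 1 with DESeq2 and 1 to 3 when leaving out a library, 1 being the count without Sen 1, and against 4 with library totals (SDC4 added) and 4 with genes kept from 1 read (FMOD added, -1.25, edgeR adjusted p = 0.142). The TE call numbered 1, against 0 with DESeq2, with genes kept from 1 read, with RPF from all 3 regions and at a threshold of 0.05, and 0 to 1 when leaving out a library; the cause was not tested. List genes called higher in RPF (20) were 9 with DESeq2, and those called lower (9) were 4 with DESeq2 and 5 with the replicate block. List genes called higher in TE (3) were 0 with DESeq2, 1 at a threshold of 0.05, 5 without the shallow lysates and 6 with no replicate block, and 0 to 4 when leaving out a library. DESeq2 called 1164 genes in RPF and 28 in TE, against 4088 and 751 with edgeR.

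Signs turned where values were near 0. VCAN RPF (-0.04) was 0.08 with DESeq2, 0.12 with the replicate block, 0.01 with all 3 regions and -0.19 to 0.29 when leaving out a library. VCAN TE (-0.10) was 0.01 with DESeq2 and -0.24 to 0.04, and DCN TE (0.16) was -0.10 without the shallow lysates and -0.14 to 0.40, the latter range in each case from leaving out a library. The same gave LUM TE -0.23 to 0.16, CD44 TE -0.09 to 0.19 and SDC2 TE -0.01 to 0.49.

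Replicate numbers of Pro and Sen were not said to mark shared cultures. Libraries with the same number deviated together with r = -0.101 to 0.124 in mRNA and 0.01 to 0.028 in RPF. These values cannot decide whether the numbers mark pairs, since RNA-seq and Ribo-seq libraries of a shared lysate gave only r = -0.046 to 0.059. With the replicate block all 10 mRNA calls held, and 2336 genes were called in RPF against 4088; HAS2 (-0.47, edgeR adjusted p = 0.633) and SDC2 (0.72, edgeR adjusted p = 0.171) were not called in RPF. Not every library correlated best with its own number: Pro 1 did so with Sen 2 in mRNA (r = 0.143). Depth limits HAS2, FMOD and SDC2 footprints, with 87, 30 and 233 reads in all.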
